A study of Mus musculus with 2 samples.

Results

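The Retnla and Ear2 high macrophages of B16-F10 melanoma numbered 55 of the 12078 cells kept. They comprised 19 of 6284 cells in the Irg1+/+ library (0.302%, 95% Clopper-Pearson interval 0.182% to 0.472%) and 36 of 5794 cells in the Irg1-/- library (0.621%, interval 0.436% to 0.859%). The cells were chosen by their counts of unique molecular identifiers (UMIs, each standing for 1 captured transcript). A cell was taken when it held at least 10 UMIs of Retnla, at least 2 UMIs of Ear2 and Mgl2 together and at least 3 UMIs of the macrophage genes Csf1r, C1qa, C1qb and C1qc together, with mitochondrial genes under 10% of its UMIs. The levels of these 7 genes are therefore a description of the choice and not a result.

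B16-F10 is a pigmented mouse melanoma cell line, and 200000 of its cells were placed under the skin of Irg1+/+ or Irg1-/- mice, with no further treatment. The study describes the Irg1-/- mice as a whole-body knockout of Irg1 (gene symbol Acod1), bred onto the C57BL/6J background. Its general statement on animals gives females of 6 to 10 weeks of age, with a narrower range within this for mice with tumors under the skin. Tumors were taken on day 10, pieces of 100 mm3 from 3 mice of a genotype were pooled into 1 sample, and 6000 Cd45+ immune cells per sample were sorted for the BD Rhapsody microwell system. The deposited matrices held 6408 and 5896 barcodes (Irg1+/+ and Irg1-/-), with a median of 4560 and 4635 UMIs.

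With 1 library per genotype, the spread between mice was not measured, so no difference between genotypes was tested, and intervals cover counting error only. Genotype and library cannot be told apart. The libraries shared 36 cell barcodes, and 1 of the 36 selected Irg1-/- cells carried such a barcode, which held 0 Retnla UMIs in the Irg1+/+ library.

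Retnla encodes resistin-like alpha, a secreted protein that macrophages make when interleukin-4 or interleukin-13 signals through the transcription factor STAT6. Ear2 encodes an eosinophil-associated ribonuclease of the ribonuclease A family, and Mgl2 a galactose-binding C-type lectin of macrophages and dendritic cells. Macrophages with Retnla are best known from allergic and worm-infected tissues and from the body cavities, where newly arrived monocytes turn it on while they still carry MHC class II. Irg1 encodes the mitochondrial enzyme that makes itaconate.

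In the GENCODE annotation of GRCm38 the protein-coding gene Retnla (ENSMUSG00000061100) lies at chr16:48842551-48844461, Ear2 (ENSMUSG00000072596) at chr14:44102654-44103534 and Lyz1 (ENSMUSG00000069515) at chr10:117287797-117292868. To show the DNA in front of these genes, which had the highest ratios to other macrophages described below, the stretch from 250 to 61 bases before the RefSeq start site (build GRCm38.p6) is printed 5′ to 3′ for Retnla at chr16:48842359-48842548 (plus strand), Ear2 at chr14:44102404-44102593 (plus strand) and Lyz1 at chr10:117292929-117293118 (minus strand). Capitals mark matches, on either strand, to TTCNNNNGAA (the spacing read by STAT6) or TTGCNNAA (a C/EBP-type motif).
Retnla: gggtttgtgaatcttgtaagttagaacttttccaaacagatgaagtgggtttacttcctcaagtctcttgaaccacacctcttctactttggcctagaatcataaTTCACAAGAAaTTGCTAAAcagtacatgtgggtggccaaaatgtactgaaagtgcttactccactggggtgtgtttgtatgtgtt
Ear2: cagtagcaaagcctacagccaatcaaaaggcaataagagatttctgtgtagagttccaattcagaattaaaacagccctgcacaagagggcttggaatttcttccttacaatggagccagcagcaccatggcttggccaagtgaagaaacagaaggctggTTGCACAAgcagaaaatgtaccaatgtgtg
Lyz1: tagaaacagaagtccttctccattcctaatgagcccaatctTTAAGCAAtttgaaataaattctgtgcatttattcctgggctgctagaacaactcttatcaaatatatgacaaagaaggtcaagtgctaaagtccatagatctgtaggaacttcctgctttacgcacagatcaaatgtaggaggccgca

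The Retnla window held TTCACAAGAA, which began 145 bases before the start, and TTGCTAAA, which began 134 bases before it. Ear2 held TTGCACAA at 90 bases and Lyz1 held TTAAGCAA at 209 bases before the start. Windows of 300 bases (250 before to 50 after the start) were found for 13 of 19 leading genes, 16 windows in all as Steap3 has 4, and TTCNNNNGAA matched in 2, TTGCNNAA in 4 and TTCNNNGAA, the shorter STAT spacing, in 0 of the 16 windows. Among all 32851 windows the shares were 6.95%, 10.8% and 8.30% in that order. The same motifs were absent from the windows of Mgl2, Aldh1a2 and Fcrls. The motifs were chosen with these matches known, and a match describes the letters of the window only.

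The selected cells held a median of 23324 UMIs and 4915 genes in the Irg1+/+ library and 14119 UMIs and 3765.5 genes in the Irg1-/- library, against medians of 4528 and 4594.5 UMIs over all kept cells. The most similar groups described below were deep as well, with medians of 20095.5 and 11720 UMIs in Lyve1 macrophages and 14002 and 10763 UMIs in Mgl2 macrophages. Depth ranged from 2488 to 36121 UMIs in the Irg1+/+ cells and from 1113 to 43051 UMIs in the Irg1-/- cells. A rule with fixed UMI floors is more easily met by a deep cell. Of the cells with the macrophage floor and at least 10000 UMIs, 15 of 1220 (1.23%, interval 0.690% to 2.02%) and 22 of 980 (2.24%, interval 1.41% to 3.38%) were selected. When every cell was first thinned to 2000 UMIs and the floors lowered to match, 12 of 4798 Irg1+/+ cells and 20 of 4502 Irg1-/- cells were found, of which 11 and 20 belonged to the original set. The share was thus larger in the Irg1-/- library in each of these counts, while the intervals given above overlapped between the libraries. It was not larger when cells with 3 or more UMIs of another cell type were left out, which kept 3 and 2 cells. With Ear2 alone in the second condition the shares of the libraries lay closer together.

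Retnla transcripts were concentrated in these cells. At least 10 Retnla UMIs were found in 27 Irg1+/+ and 54 Irg1-/- cells, and of these 8 and 17 fell short of the Ear2 and Mgl2 floor and 0 and 1 of the macrophage floor. The selected cells contributed 0.895% and 1.73% of all UMIs of the kept cells. They held 62.7% and 63.3% of the Retnla UMIs, which the rule set in part, and 33.9% and 40.9% of the UMIs of Lyz1, which it did not use. Ear2 was above 0 together with Mgl2 in 16 of 19 and 22 of 36 cells, whereas 3 and 10 cells had 0 Ear2 UMIs and entered through Mgl2. The name therefore describes Retnla in all 55 cells and Ear2 in most.

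**Figure D1:**
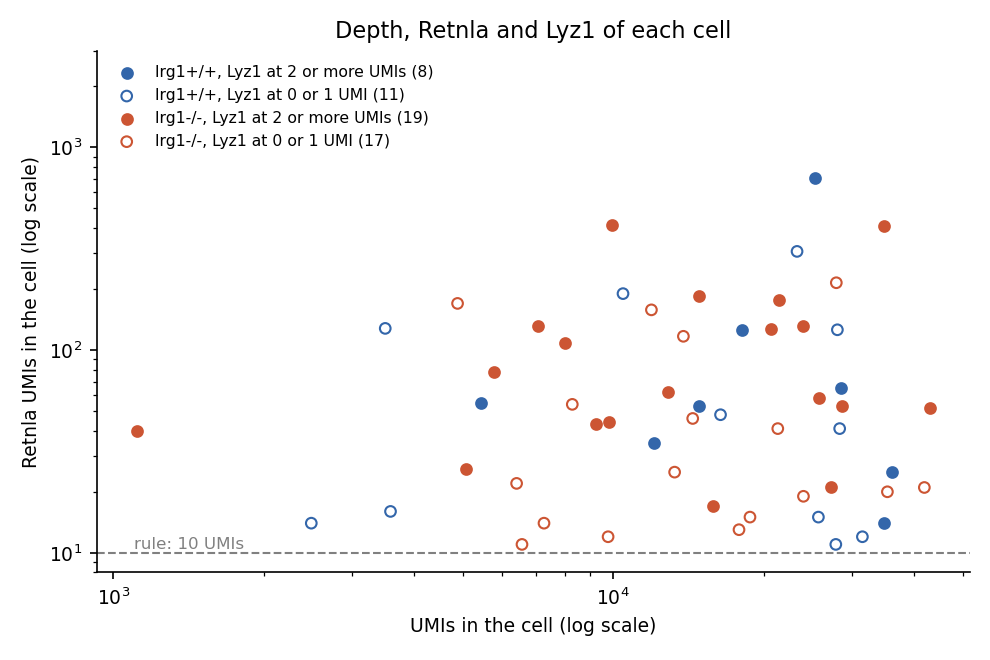
UMIs per cell (horizontal axis, log scale) against Retnla UMIs (vertical axis, log scale), 1 point per cell, with color for the library and filled points for cells with at least 2 Lyz1 UMIs. The selected cells reach from 11 to 709 Retnla UMIs, and most lie at depths above the medians of the kept cells (4528 and 4594.5 UMIs).

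Irg1 itself was measured first, as Acod1, because it checks the genotype labels. The Irg1+/+ cells held 34 Acod1 UMIs, or 90.3 CPM (UMIs of the gene scaled to a total of 1000000; Poisson interval 62.5 to 126.1), with a UMI in 8 of 19 cells. The library labelled Irg1-/- held 32 UMIs, or 52.5 CPM (35.9 to 74.2), with a UMI in 15 of 36 cells. After thinning to 2000 UMIs these shares were 21.1% and 11.4%, against 4.81% and 5.13% of T and NK cells. Acod1 RNA was thus present in both libraries, also in the other macrophages at 82.4 and 98.9 CPM and in T and NK cells, a measure of free RNA, at 45.1 and 22.8 CPM. The Acod1 level therefore did not show the loss of Irg1 that the label names. UMIs count RNA at the 3′ end of the gene and do not show whether the transcript encodes an active enzyme.

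The remaining groups were gated by UMIs as well. Other macrophages were the 4140 and 3804 cells that met the same macrophage floor and were not selected, which at 3 UMIs also admits cells that picked up free C1q RNA. Within them, 547 and 335 cells had at least 3 UMIs of Mgl2 and Ccl24 (Mgl2 macrophages), and 152 and 125 had at least 3 UMIs of Lyve1, Cbr2 and Cd163 (Lyve1 macrophages). Cells under the macrophage floor gave 9 and 23 Cd209a dendritic cells and 672 and 574 T and NK cells. Vcan monocytes, with at most 2 C1q UMIs, numbered 588 and 801. Their Csf1r was not limited, so a monocyte that met the floor through Csf1r also counted among other macrophages.

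Retnla ranged widely among the selected cells. Its lowest, median and highest counts were 11, 48 and 709 UMIs in the Irg1+/+ cells and 11, 49 and 416 UMIs in the Irg1-/- cells. Per cell, the median level was 3565 and 4570 CPM and the highest 36592 and 41914 CPM. The libraries overlapped over nearly the whole range, and 1 Irg1+/+ cell alone held 35.6% of the Retnla UMIs of its library. Summed over cells, Retnla stood at 5281 CPM (5051 to 5518) in the Irg1+/+ cells and 5175 CPM (4995 to 5358) in the Irg1-/- cells. Other macrophages held 24.3 and 48.7 CPM and T and NK cells 18.2 and 31.7 CPM, so the low level outside the selected cells was close to that of free RNA and higher in the Irg1-/- library in both groups. The share of cells with a Retnla UMI after thinning to 2000 UMIs was 84.2% and 94.3% in the selected cells, 4.05% and 7.77% in other macrophages and 2.96% and 6.29% in T and NK cells. Without thinning, 15.5% and 23.7% of other macrophages (medians of 6564.5 and 6425 UMIs) and 5.51% and 7.84% of T and NK cells (2810 and 2515.5 UMIs) held a Retnla UMI.

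Ear2 was more uneven. Lowest, median and highest counts were 0, 8 and 42 UMIs in the Irg1+/+ cells and 0, 2.5 and 68 UMIs in the Irg1-/- cells. The cell with 68 UMIs is described further with the dendritic cell genes. The sums were 213 UMIs (566 CPM) and 257 UMIs (422 CPM), against 26.9 and 32.1 CPM in other macrophages and 5.28 and 7.61 CPM in T and NK cells. Genes of the Ear family are nearly identical in sequence, so reads of one can be counted under another or lost. Ear1 and Ear10 each held 0 UMIs in the Irg1+/+ cells and 1 UMI in the Irg1-/- cells, and Ear6 held 0 in both. A more distant member of the family, Rnase2a, held 26 and 6 UMIs. Among Ear1, Ear2, Ear6 and Ear10, the counts as deposited thus assigned nearly all UMIs to Ear2.

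Mgl2 was found at 1, 7 and 101 UMIs in the Irg1+/+ cells (lowest, median, highest) and at 0, 4 and 116 UMIs in the Irg1-/- cells. Its summed level, 802 and 852 CPM, was about that of the Mgl2 macrophages, at 727 and 1004 CPM, while other macrophages as a whole held 206 and 172 CPM. Both groups were chosen in part by Mgl2, so their levels follow from the gates. The Mgl2 macrophages, which were held under 10 Retnla UMIs, had 24.8 and 40.4 CPM of Retnla.

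Lyz1, the P lysozyme best known from Paneth cells of the gut, was the gene outside the rule with the highest ratio to other macrophages. Lowest, median and highest counts were 0, 1 and 144 UMIs in the Irg1+/+ cells and 0, 2 and 221 UMIs in the Irg1-/- cells, with 0 UMIs in 6 and 15 cells. The sums gave 897 CPM (804 to 998) and 1108 CPM (1026 to 1195) against 16.1 and 29.9 CPM in other macrophages, a log2 ratio of 5.80 and 5.21. In Mgl2 macrophages the level was 23.8 and 62.7 CPM and in T and NK cells 3.84 and 12.0 CPM. The single cell with most Lyz1 held 42.6% and 32.7% of the Lyz1 UMIs of its library, so the level rested on a minority of cells. The M lysozyme Lyz2, a general gene of myeloid cells with a similar sequence, was found in every selected cell, with a median of 207 and 164.5 UMIs and a level of 11820 and 10562 CPM against 5605 and 5917 CPM in other macrophages. Whether some Lyz1 reads came from Lyz2 was not tested. Vcan monocytes, with 9937 and 9580 CPM of Lyz2, held 18.1 and 23.6 CPM of Lyz1.

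Aldh1a2, which makes retinoic acid from retinal, was sparse, with 0, 1 and 11 UMIs in the Irg1+/+ cells and 0, 1 and 7 UMIs in the Irg1-/- cells. Its summed level was 90.3 CPM (62.5 to 126.1) and 96.9 CPM (73.7 to 124.9), against 7.66 and 9.34 CPM in other macrophages and 2.40 and 2.54 CPM in T and NK cells. Dcstamp, needed for the fusion of osteoclasts and giant cells, had a UMI in 9 of 19 and 11 of 36 cells, against 1.49% and 1.05% of the shallower T and NK cells. After thinning to 2000 UMIs the shares were 21.1% and 11.4% against 0.926% and 1.17%. It reached 87.6 and 54.2 CPM against 22.7 and 7.20 CPM in other macrophages, and 47.3 and 21.0 CPM in Mgl2 macrophages. Dcstamp was under the filter of 50 CPM described below and rested on 33 UMIs in each library.

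**Figure D2:**
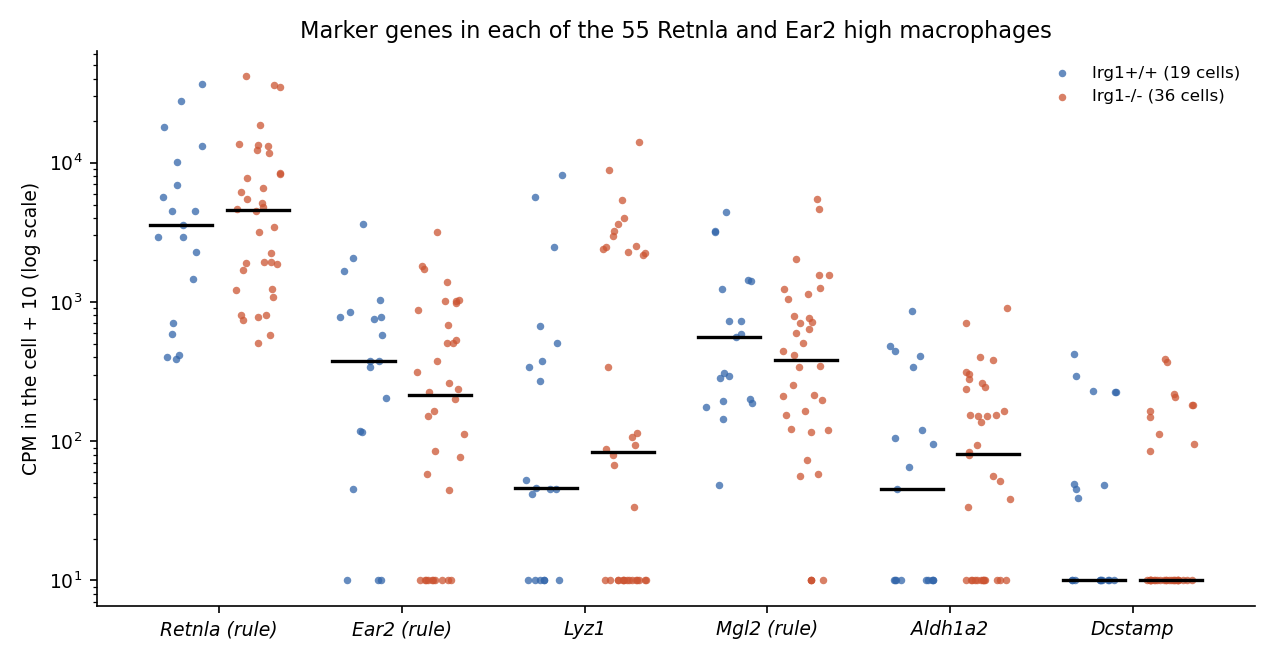
Level of each marker gene in every selected cell, as CPM + 10 on a log axis, 1 point per cell, with Irg1+/+ (19 cells) and Irg1-/- (36 cells) side by side and the median as a bar. Retnla is above 0 in all cells by choice, while Lyz1, Aldh1a2 and Dcstamp are at 0 in many cells of both libraries and the libraries overlap for each gene.

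The macrophage genes of the rule summed to a lowest, median and highest count of 3, 116 and 344 UMIs in the Irg1+/+ cells and 3, 61.5 and 258 UMIs in the Irg1-/- cells, and 2 and 3 cells held fewer than 10. Csf1r, the receptor for the growth factor CSF1, had a median of 13 and 9 UMIs per cell and stood at 621 and 645 CPM against 462 and 560 CPM in other macrophages. C1qb, a chain of complement C1q, had a median of 49 and 34.5 UMIs and stood at 3144 and 2541 CPM against 1178 and 1215 CPM. Lyve1 macrophages held 574 and 829 CPM of Csf1r and 2694 and 3221 CPM of C1qb, above the selected cells for both genes in the Irg1-/- library only. Over the whole list of 14 macrophage identity genes the selected cells summed to 23030 and 19562 CPM, and 0 of the 14 were at 0, but the list holds the floor genes and Lyz2. The 9 genes of the list besides those, among them Cd68 and Itgam, summed to 4349 and 4147 CPM in the selected cells, 3804 and 4013 CPM in other macrophages and 3981 and 3835 CPM in Vcan monocytes. Lyve1 macrophages held more than the selected cells, at 6019 and 7813 CPM, and Mgl2 macrophages held 4023 and 3612 CPM. T and NK cells held 1284 and 1137 CPM of the same genes, and were chosen to lie under the floor. Cells just inside and outside the Retnla floor were compared as well. In the Irg1+/+ library 7 cells with 5 to 9 Retnla UMIs met the rest of the rule and held 10.7 CPM of Lyz1, while the 6 cells with 10 to 20 UMIs held 87.3 CPM (9 of 11 UMIs in 1 cell) and the 13 cells above 20 held 1305 CPM. In the Irg1-/- library the 6, 8 and 28 cells of these classes held 98.8, 1632 and 958 CPM. The 1632 CPM were 221 UMIs of 1 cell, and the other 7 cells of that class held 0 Lyz1 UMIs. The 7 Irg1+/+ cells just outside the floor held 150.2 CPM each of Aldh1a2 and Dcstamp and 788.5 CPM of Mgl2, which is above the selected Irg1+/+ cells for Aldh1a2 and Dcstamp, while the 6 Irg1-/- cells held 29.7, 19.8 and 405 CPM in that order.

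**Figure D3:**
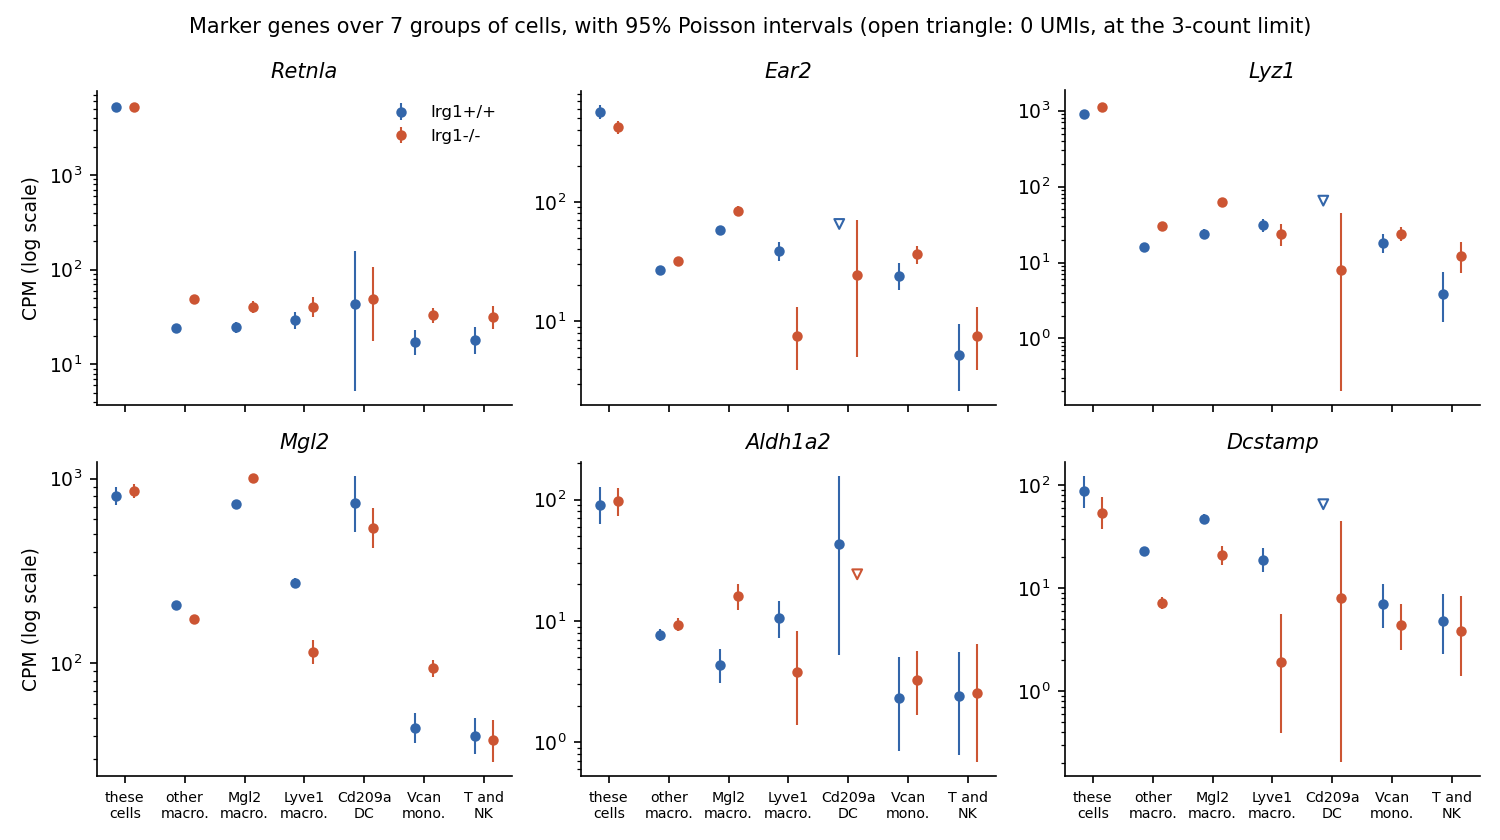
Summed level (CPM, log axis) of the 6 marker genes in 7 groups of cells of both libraries, with 95% Poisson intervals, with an open triangle at the 3-count limit where a group had 0 UMIs. Retnla, Ear2, Lyz1 and Aldh1a2 are highest in the selected cells ("these cells") in both libraries, while Mgl2 is as high in Mgl2 macrophages.

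Of 3721 genes with a mean of at least 50 CPM, 66 (1.77%) were at least 2-fold higher and 85 (2.28%) at least 2-fold lower in the selected cells than in other macrophages in both libraries. The median log2 ratio over all 3721 genes was -0.08 and -0.06. Because the selected cells were picked by Retnla within this contrast, these counts describe the set and are no test of it. Of the 66 higher genes, 30 were under 50 CPM in other macrophages of both libraries, so that they passed the filter only through their level in the selected cells. TMM scaling added 0.10 and 0.06 to every log2 ratio and gave 73 higher and 64 lower genes. Against other macrophages with at least 10 UMIs of the floor genes, 42 genes were higher and 46 lower.

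Besides Lyz1 and Aldh1a2, the highest ratio outside the rule belonged to Fcrls, an Fc receptor-like scavenger receptor of macrophages and microglia. It stood at 327 and 356 CPM against 28.9 and 20.8 CPM (log2 ratio 3.51 and 4.10) and had a UMI in 80.0% of the selected cells. Fn1, fibronectin, was found at 1590 and 1624 CPM against 400.0 and 339 CPM (1.99 and 2.26), with a median of 22 and 14 UMIs per cell. F7, coagulation factor VII, had log2 ratios of 2.54 and 2.36, and C4b, complement component 4, of 3.41 and 1.94. Among surface receptors, Cd226, an adhesion and signaling receptor, reached 223 and 243 CPM against 45.0 and 41.2 CPM (2.32 and 2.56). The lectin Clec4b1 (2.26 and 2.05), the membrane protein Ms4a8a (2.28 and 2.59) and Cd200r1 (1.69 and 1.93), an inhibitory receptor, were also higher. Log2 ratios of 2.44 and 2.16 were obtained for the iron reductase Steap3, 1.86 and 1.92 for Tmem37 and 2.16 and 1.83 for Rab11fip5, a Rab11-binding protein. Of the 15 genes named, among them the chemokines Ccl6 and Ccl24 described below, only Fn1, Ccl6 and Cd200r1 reached 50 CPM in other macrophages of either library, and the other 12 passed the filter through the selected cells, so their ratios are a description of the choice of cells. Under the strictest removal of cells with markers of other cell types, which left 5 cells, F7, Ccl24 and Tmem37 were no longer 2-fold higher.

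Among the 10 genes with the lowest ratios were Ccr7, the homing receptor of mature dendritic cells, at 39.8 and 34.5 CPM against 178 and 205 CPM (log2 ratio -2.11 and -2.53), and Ccl22, a chemokine of the same cells, at 77.0 and 41.0 CPM against 330 and 198 CPM. Tbc1d4, a Rab GTPase-activating protein (-3.35 and -2.49), Stat4 (-2.77 and -1.92), Runx2 (-1.66 and -1.73), Ramp3 (-1.92 and -1.75) and the actin-binding Actn1 (-2.08 and -1.72) were lower as well. Dct, a pigment enzyme of melanoma cells, and Igha, the IgA heavy chain, are made by other cells and were also lower, at 79.7 and 21.3 CPM against 412 and 89.7 CPM for Dct. The part of other cell types in the 85 lower genes was not tested. In the 5 cells left by the strictest removal of cells with markers of other cell types, 1 of the 10 lowest genes, Ccl22, was still 2-fold lower in both libraries. Spp1, osteopontin, stood at 117 and 65.7 CPM against 596 and 237 CPM.

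**Figure D4:**
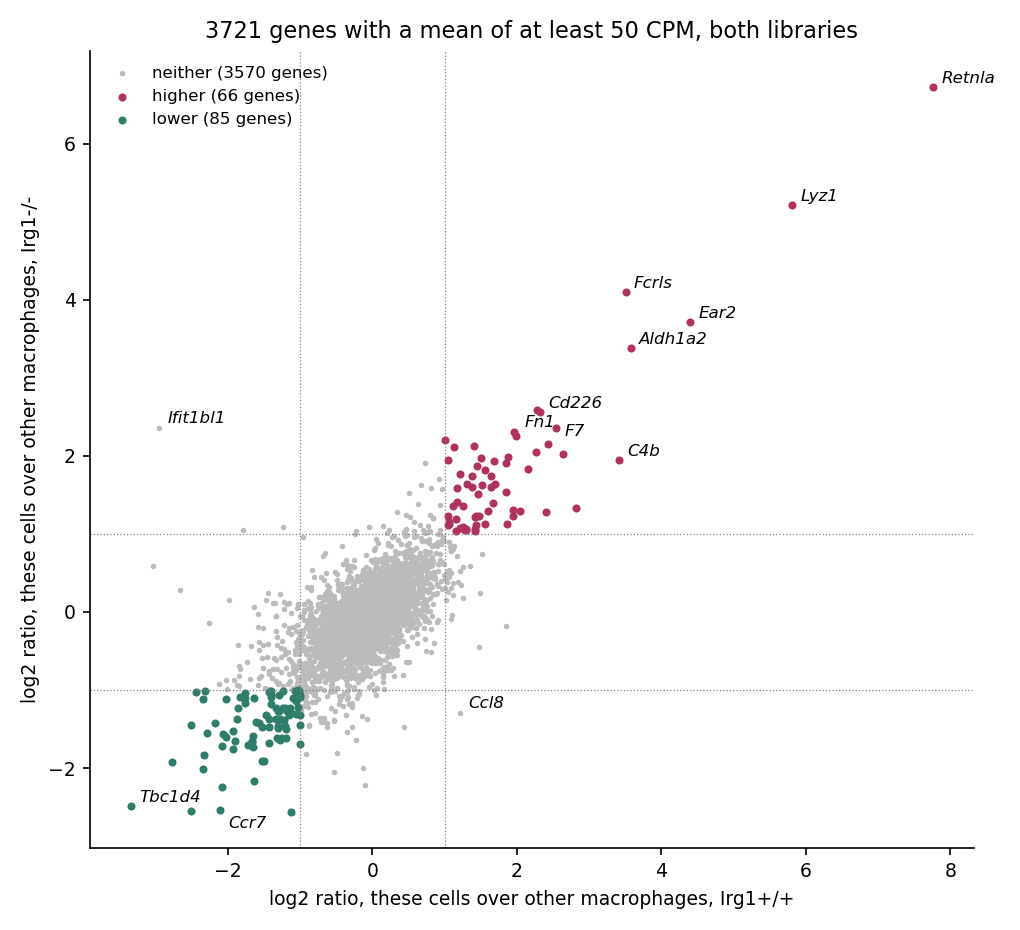
Log2 ratio of the selected cells over other macrophages for 3721 genes, Irg1+/+ on the horizontal and Irg1-/- on the vertical axis, with dotted lines at 2-fold. Retnla and Lyz1 stand furthest out, 66 genes are past 2-fold upward and 85 downward in both libraries, and Ccl8 and Ifit1bl1 lie in opposite corners.

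Gene lists were described by their counts beside these shares (1.77% higher, 2.28% lower). Of 12 genes of serous cavity macrophages 3 passed the CPM filter, and these, Fn1, Cd226 and Aldh1a2, were higher. Cd226 and Aldh1a2 were under 50 CPM in other macrophages and passed the filter only because they were high in the selected cells, so the count is no measure of the list. Gata6, the transcription factor that defines resident macrophages of the peritoneal cavity, had 0 UMIs in both libraries, which allows up to 7.97 and 4.92 CPM. A total of 7 and 6 of the 12 genes, among them Prg4, Selp and Cxcl13, were at 0. The defining factor of resident peritoneal macrophages was thus not detected at this depth. Whether the cells resemble other macrophages of the body cavities was not tested.

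Of 12 alternative activation genes measured, 5 were higher (Retnla, Mgl2, Mrc1, Ccl24 and Egr2) and 1 lower (Ccl22), with a median of 0.85 and 0.24, and Retnla and Mgl2 belong to the rule. Mrc1, the mannose receptor, stood at 1423 and 841 CPM against 396 and 290 CPM, and was found in every selected cell. It stood at 736 and 502 CPM in Mgl2 macrophages and, higher than in the selected cells, at 1543 and 1078 CPM in Lyve1 macrophages. Egr2, a transcription factor induced by interleukin-4, stood at 390 and 355 CPM against 175 and 155 CPM. Chil3, another gene of the program, was not higher, with 130 and 212 CPM against 379 and 319 CPM. A single cell held 94 of its 129 Irg1-/- UMIs, and without the top cell of each library the levels were 82.2 and 61 CPM. Il4ra (143 and 95.2 CPM) and Stat6 (90.3 and 100.1 CPM), which transmit the interleukin-4 signal, were within 2-fold of other macrophages.

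Among 6 resident macrophage genes measured, Cbr2 (273 and 126 CPM against 52.1 and 52.1 CPM) and Mrc1 were higher, with a median of 1.19 and 0.53. Lyve1 held 5 UMIs in 2 Irg1+/+ cells and 30 UMIs in 3 Irg1-/- cells, and Timd4, a receptor of long-lived resident macrophages, 0 and 12 UMIs. Of 9 monocyte genes measured 0 were higher and 1, Ly6c2 (284 and 670 CPM against 770 and 1730 CPM), was lower, with a median of -0.06 and -0.08. Ccr2, the receptor through which monocytes enter tissue, stood at 1006 and 1118 CPM against 630 and 971 CPM in other macrophages. The selected cells thus held Ccr2 within 2-fold of other macrophages (log2 ratio 0.68 and 0.20) with lower Ly6c2. Other macrophages can include monocytes, and their part in the Ly6c2 difference was not tested.

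Of 17 chemokine genes 4 were higher and 1, Ccl22, lower. Ccl6 was the most abundant, at 6553 and 5266 CPM against 1791 and 1329 CPM, with a median of 94 and 68.5 UMIs per cell. Its neighbour in the genome, Ccl9, reached 3178 and 2999 CPM against 1074 and 847 CPM. Ccl24, an attractant of eosinophils, stood at 250 and 60.7 CPM against 40.3 and 15.1 CPM, and Cxcl1, an attractant of neutrophils, at 512 and 263 CPM against 188 and 72.2 CPM.

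Of 8 MHC class II presentation genes measured, 0 were past 2-fold in both libraries in either direction, with a median of 0.65 and 0.46. H2-Ab1 stood at 8462 and 8883 CPM against 5290 and 6075 CPM, and no selected cell held fewer than 8 UMIs of it. Of 8 dendritic cell genes 1, Batf3, was higher and 2, Ccr7 and Fscn1, were lower. Cd209a held 7 and 50 UMIs, of which 22 lay in 1 Irg1-/- cell, and Flt3 5 and 8 UMIs. That cell also held the highest Ear2 and Mgl2 counts of its library (68 and 116 UMIs), with 4 UMIs of C1qb and 421 of H2-Ab1. A further Irg1-/- cell held 14 Cd209a, 62 Mgl2 and 8 C1qb UMIs. Both had 0 Flt3 UMIs, and whether they are dendritic cells was not tested. Of 6 costimulation genes 0 were past 2-fold in both libraries.

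The enzyme and family lists were narrower. Of 4 retinoic acid genes measured, Aldh1a2 and Dhrs3, a retinal reductase (271 and 177 CPM against 102 and 76.7 CPM), were higher, Aldh1a2 having passed the filter only through the selected cells. The same holds for Ear2, Retnla, Lyz1, Ccl24 and Batf3. Of 3 ribonuclease A genes Ear2 was higher, and of 3 resistin-like and lysozyme genes Retnla and Lyz1. Among 7 genes of cell fusion and osteoclasts 1, Cd81, was higher. Of 13 lipid-associated macrophage genes Lpl, lipoprotein lipase (1585 and 2057 CPM against 788 and 447 CPM), and Ctsd, cathepsin D, were higher, while Gpnmb and Spp1 were lower. The set thus combined high Lpl with low Spp1 and Gpnmb.

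The remaining programs showed few or no genes past 2-fold in both libraries. Of 13 macrophage identity genes 1, C1qb of the rule, was higher. Of 16 myeloid transcription factors Egr2 was higher and Runx3 lower, and of 14 growth factor and cytokine receptors Ifngr1 was lower. Of 11 cell cycle genes Rrm2 and Hmgb2 were lower. None of the 7 itaconate, 13 hypoxia and glycolysis, 5 proinflammatory cytokine, 16 interferon response and 15 dissociation stress genes was past 2-fold in the same direction in both libraries.

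Markers of other cell types were at low levels. The 8 T and NK cell markers summed to 831 and 660 CPM in the selected cells, below the 1692 and 1477 CPM of other macrophages and the 6131 and 5647 CPM of T and NK cells, with Trbc2 the most abundant (228 and 205 CPM). The 4 melanocyte markers summed to 189 and 52.5 CPM against 833 and 179 CPM. B cell markers summed to 10.6 and 4.92 CPM, neutrophil to 21.2 and 49.2 CPM, eosinophil to 7.97 and 26.3 CPM, mast cell to 13.3 and 23.0 CPM and fibroblast to 18.6 and 8.21 CPM, and erythrocyte markers were at 0. Eosinophils, which also make Ear transcripts, were thus represented by few UMIs, with 3 and 1 of the 4 eosinophil markers at 0 and Alox15, which macrophages also make, the most abundant. Per cell, T, NK and B cell markers had a lowest, median and highest count of 0, 14 and 89 UMIs in the Irg1+/+ cells and 0, 5.5 and 149 UMIs in the Irg1-/- cells. With 30 or more such UMIs, 2 cells per library stood apart, and without them 68 genes were higher and 104 lower than in other macrophages.

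The selected cells were uneven in Lyz1. At least 2 Lyz1 UMIs were held by 8 Irg1+/+ and 19 Irg1-/- cells. Compared with the cells at 0 or 1 UMI, these had 6167 against 4509 CPM of Retnla in the Irg1+/+ library and 6698 against 3428 CPM in the Irg1-/- library. In the Irg1+/+ library 1 cell held 709 of the 1081 Retnla UMIs of the Lyz1 class, and without the top cell of each class the direction turned, to 2482 against 3376 CPM, while the Irg1-/- library kept it (5590 against 2962 CPM). Mgl2 stood at 616 against 963 CPM and 492 against 1265 CPM, but 1 Irg1+/+ cell with 0 or 1 Lyz1 UMI held 101 of 194 UMIs, and without the top cell of each class the values were 498 against 548 CPM and 309.8 against 926 CPM. The median level per cell went the opposite way in the Irg1+/+ library, at 564 against 300.1 CPM, and was lower with Lyz1 in the Irg1-/- library, at 202 against 761 CPM. Aldh1a2 was higher with Lyz1, at 148 against 39.7 CPM and 117 against 74.0 CPM. H2-Ab1 had no shared direction in the sums (9590 against 7479 CPM and 7630 against 10319 CPM), while its median level per cell was higher with Lyz1 in both libraries (12924 against 9614 CPM and 9190 against 8392 CPM). The classes were cut from a single count after the values were seen and are a description.

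Across the cells, log levels of Retnla and Aldh1a2 correlated at 0.60 (n = 19) and 0.47 (n = 36), Retnla and Lyz1 at 0.02 and 0.43, and Lyz1 and Mgl2 at -0.22 and -0.39. Retnla CPM decreased with depth in both libraries (-0.56 and -0.56). The part of the UMI floor in this was not tested. Such coefficients rest on few cells that share a library. Over the 7 groups of both libraries (14 points), 2 of which were groups chosen by Retnla itself, the genes most like Retnla were Lyz1 (Pearson 0.93), Cpt1a (0.85), the rule gene Ear2 (0.85), Anxa2 (0.81), Pttg1ip (0.81), H1f2 (0.80), Socs6 (0.79), Actr1a (0.78), Mcub (0.77) and Pycard (0.75).

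Whether the cells lay together in genes the rule did not use was described by their nearest neighbours among 7999 cells with the macrophage floor, in 20 principal components of 2000 variable genes without the 7 rule genes. Of the 15 nearest neighbours of a selected cell, a mean of 3.82 (25.4%) were selected cells, while these made up 0.688% of the cells. For other macrophages the mean was 0.06, and for other macrophages with at least 10000 UMIs 0.15. At least 5 selected neighbours were found for 21 of the 55 cells, and 13 cells had none. The cells close together carried more Retnla, Lyz1 and Fn1. In the Irg1+/+ library, 5 cells with at least 5 selected neighbours held 13111 CPM of Retnla, 3051 CPM of Lyz1 and 2912 CPM of Fn1, against 2686, 184 and 1152 CPM in the other 14. In the Irg1-/- library, 16 such cells held 7747, 2096 and 2501 CPM against 3447, 445 and 1035 CPM in the other 20. Single cells weighed on these sums, and without the top cell of each class Retnla stood at 7607 against 2092 CPM in the Irg1+/+ library and Lyz1 at 1276 against 323 CPM in the Irg1-/- library. Mgl2 was lower in the former cells, at 331 against 958 CPM and 715 against 944 CPM. The 55 cells were thus not homogeneous, with 21 cells at 5 or more selected neighbours, 21 at 1 to 4 and 13 at 0. Lyz1 and Fn1 took part in the components and Retnla is a gene of the rule, so this is no separate evidence for them.

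Between the libraries, the selected cells were compared with no test. Of 1903 genes with a mean of at least 100 CPM, 24 (1.26%) were at least 2-fold higher and 20 (1.05%) at least 2-fold lower in the Irg1-/- cells, with a median log2 ratio of 0.01. With TMM scaling the counts were 31 and 17. Retnla, Lyz1, Ear2 and Mgl2 were not among them, and Aldh1a2, Dcstamp and Acod1 were under 100 CPM and outside these counts. Expressed as the Irg1-/- level over the Irg1+/+ level, log2 ratios were -0.03 for Retnla (-0.11 to 0.05), 0.30 for Lyz1 (0.11 to 0.50), -0.42 for Ear2 (-0.69 to -0.15), 0.09 for Mgl2 (-0.12 to 0.30), 0.09 for Aldh1a2 (-0.53 to 0.76), -0.69 for Dcstamp (-1.43 to 0.05) and -0.78 for Acod1 (-1.52 to -0.04).

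Interferon-induced genes were among those higher in the Irg1-/- cells. Of 13 interferon response genes measured 4, Isg15, Ifit1, Rsad2 and Irf7, were at least 2-fold higher and 0 lower, with a median of 0.53 beside 0.01 over all genes. Over all 1903 genes the shares were 1.26% higher and 1.05% lower. Isg15, a ubiquitin-like protein, stood at 143 CPM in the Irg1+/+ cells and 463 CPM in the Irg1-/- cells (log2 ratio 1.68, 1.27 to 2.14) and at 1.44 without the top cell of each library. In other macrophages the ratio of Isg15 was 0.93. Ifit1 (18 and 116 UMIs), Rsad2 (48 and 162 UMIs) and Irf7 (40 and 162 UMIs) had ratios of 1.96, 1.05 and 1.31, and of 2.04, 1.88 and 0.996 without the top cells, which left Irf7 just under 2-fold. Without the cells with 30 or more T, NK and B cell UMIs, Rsad2 was at 0.87. In other macrophages Ifit1, Rsad2 and Irf7 had ratios of 0.04, -0.08 and 0.99. Slfn5, an interferon-induced Schlafen gene, had a ratio of 1.24 (0.90 to 1.61), against 0.76 in other macrophages. Cxcl9 and Gbp2, which respond to interferon gamma, went the other way within 2-fold (-0.63 and -0.60).

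The monocyte gene Ly6c2 was higher in the Irg1-/- cells, at 670 against 284 CPM (1.23, 0.93 to 1.56), and by as much in other macrophages (1.17). Crip1 (1.08), a small LIM protein, and Cd24a (1.11) were also higher, with ratios of 0.64 and -0.13 in other macrophages. Gzmb, a granzyme of cytotoxic lymphocytes, had a ratio of 1.70, but 87.5% of its UMIs in the Irg1-/- cells lay in 1 cell, and without the top cell of each library the ratio was -0.72. That value therefore belonged to 1 cell.

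Lower in the Irg1-/- cells was the chemokine Ccl8, at 83.7 against 749 CPM (-3.15, -3.62 to -2.73). A single cell held 51.8% of its Irg1+/+ UMIs, and without the top cell of each library the ratio was -2.44. In other macrophages it was -0.64. Fabp5, a fatty acid-binding protein (-1.58), the tetraspanin Cd63 (-1.40), the monocyte chemokine Ccl12 (-1.22) and the platelet factor Pf4 (-1.06) were lower as well, each with the same sign in other macrophages (-0.66, -0.65, -0.52 and -0.40). Of 6 resident macrophage genes measured 3, Ccl8, Cbr2 and Pf4, were at least 2-fold lower and 0 higher, and of 16 chemokine genes 4, Ccl8, Ccl12, Ccl24 and Pf4, were lower. These and the list counts below stand beside shares of 1.05% lower and 1.26% higher over all 1903 genes. Of the resident genes under the filter of 100 CPM, Lyve1 (5 and 30 UMIs, in 2 and 3 cells) and Timd4 (0 and 12 UMIs) had more UMIs in the Irg1-/- cells. The count of 3 lower therefore does not describe the whole resident list. Ccl24 had a ratio of -2.03. Without the 2 cells per library with 30 or more T, NK and B cell UMIs, the ratio was -0.90 for Ccl24, -0.59 for Pf4 and -0.19 for Ccl12, so these were no longer past 2-fold. Past 2-fold in the other lists were 1 alternative activation gene (Ccl24, lower), 2 lipid-associated genes (Gpnmb and Fabp5, lower), Mmp12 and Hilpda (lower), and H2-DMb2 and Cd24a (higher). Hilpda had a ratio of -1.01, and of -0.89 without the top cells, and Mmp12 moved from -1.01 to -1.73, as 1 Irg1-/- cell held 48 of its 72 UMIs. Of the 16 list genes past 2-fold between the libraries, 14 stayed so without the top cells and 12 without the cells with 30 or more lymphocyte marker UMIs.

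**Figure D5:**
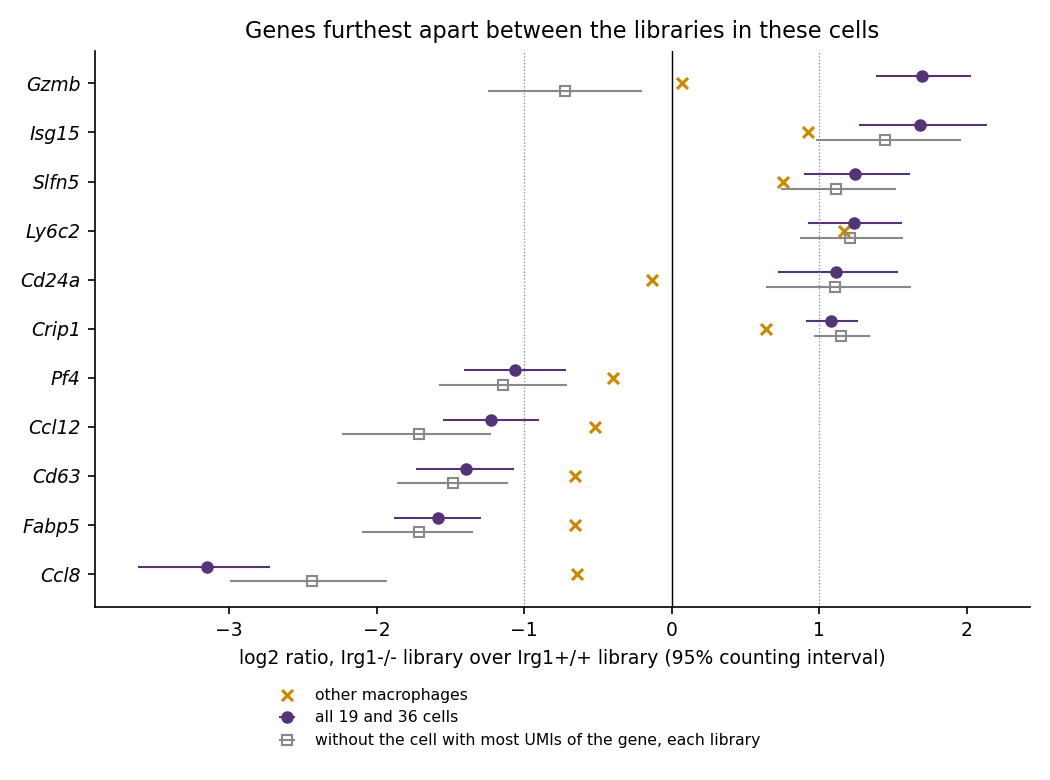
Log2 ratio of Irg1-/- over Irg1+/+ (horizontal axis) for the 6 highest and 5 of the 6 lowest genes with a mean of at least 200 CPM in the selected cells, with 95% counting intervals, beside the ratio without the cell with most UMIs and the ratio in other macrophages. Gzmb changes sign without its top cell, and Ccl8 remains at -2.44.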

How the data were processed

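Per the labels and the study's methods, the authors trimmed reads with fastp, took cell barcodes with UMI-tools (CASAVA 1.8 and Seurat are named too), aligned to GRCm38 (Ensembl) with STAR and deposited raw UMI counts per gene and cell. The study's filter of under 10% mitochondrial UMIs removed 124 and 102 barcodes, every remaining cell had over 200 genes, and mitochondrial genes were left out. UMIs were summed per library and group, scaled to a total of 1000000 (CPM), and compared as log2 ratios with 0.5 UMIs added (Python 3.11.15, numpy 2.4.6, scipy 1.17.1, R 4.3.3, edgeR 4.0.16 for TMM factors only). With 1 library per genotype no test was made. Depth was 42105693 and 35307041 UMIs over kept cells. No doublet caller was used, and alternatives leave out cells with markers of other cell types. The members, lists, rule and groups were chosen with earlier results of these data known. Genes were named as the 15 highest and 10 lowest smaller-of-both-libraries ratios, among genes detected in no fewer than 25% of the selected (or other) cells, and as the 6 highest and 6 lowest ratios between libraries at a mean of at least 200 CPM. Identifiers matched GENCODE for 31107 of 31253 genes, and 1 listed gene, Clec7a, was not found. Results of some genes, of the lists and of the 12 named between libraries, are not reported here, and list counts leave them out. Correlations used log2 of CPM + 10. The computations were tested on simulated data.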

Additional observations from a re-analysis of the deposited data

Results flagged for a closer look

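Egr3, Ccl8, Cmpk2 and Ifit1bl1 were at least 2-fold away from other macrophages in opposite directions in the libraries, among the 3721 genes compared, and the difference was not tested. Egr3, an immediate early transcription factor, had log2 ratios of -1.24 (Irg1+/+) and 1.09 (Irg1-/-), from 18 and 89 UMIs, of which 1 Irg1-/- cell held 47. The chemokine Ccl8 had ratios of 1.22 and -1.29, from 282 and 51 UMIs, of which 1 Irg1+/+ cell held 146. The interferon-induced kinase gene Cmpk2 had ratios of -1.79 and 1.05, from 5 and 73 UMIs, of which 1 Irg1-/- cell held 25. Ifit1bl1, an interferon-induced gene of the Ifit family, had ratios of -2.95 and 2.36, from 1 and 105 UMIs, and 1 Irg1-/- cell held 96 of the 105.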

How the results depend on the processing

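No paired analysis was possible because each genotype has 1 library. The share of selected cells stayed within its main counting interval with a Retnla floor of 5 or 20 UMIs, thinning, a mitochondrial limit of 5% and 30 or more T, NK and B cell UMIs left out (0.207% to 0.414% and 0.444% to 0.725%). With Ear2 alone in the second condition the shares were 0.239% (15 cells) and 0.345% (20 cells), closer together than the 0.302% and 0.621% of the full rule. Leaving out cells with 3 or more UMIs of another cell type kept 3 and 2 cells (0.0477% and 0.0345%). The share was then smaller in the Irg1-/- library. This removal gave 583 higher and 185 lower genes against other macrophages and 483 higher and 548 lower between libraries. Log2 ratios reversed sign in the Irg1-/- library for Spp1 (0.0757) and Runx2 (1.56), and between libraries for Fabp5 (2.997). These last values rest on 5 cells.

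Against other macrophages, 42 genes were higher and 46 lower when those had at least 10 floor UMIs (40 and 40 shared with the main calls), 79 and 137 with the mean of single-cell CPM, 36 and 39 at a filter of 100 CPM, and 6827 and 597 without a filter. Between libraries, mean single-cell CPM gave 37 higher and 31 lower, a filter of 200 CPM 8 and 7, and no filter 1238 and 1680. The 0.5 UMIs added outweigh genes with few UMIs in the small sums, so counts without a filter carry little. The Gzmb ratio reversed to -1.18 without the deepest cell of each library, -0.613 without the cells with 30 or more T, NK and B cell UMIs, and -0.723 without the top cells. The last pair of settings was chosen after seeing the data. The strictest removal left 5 of the 6 markers at least 2-fold above other macrophages, and the direction of Retnla, Ear2 and Mgl2 is set by the rule. Of 192 list medians under alternatives, 158 kept their sign and moved by less than 0.5. Of 84 marker levels, 47 were counted as the same and 37 as moved. Of 66 ratios of named genes between libraries, 43 were the same, 19 moved and 4 reversed. Of 300 ratios of named genes against other macrophages, 206 were the same, 92 moved and 2 reversed. With 55 cells, genes under 50 CPM were too shallow to compare.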
